A study of Mus musculus with 23 samples.

Results

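Retinas of P23H mice treated with the mouse rhodopsin gene were compared with wild-type retinas by small RNA sequencing. The tested samples are 11 libraries of heterozygous P23H knock-in mice (P23H+/- KI) given DNA nanoparticles that carry the genomic form of mouse rhodopsin, called mouse gRho here. They are set against 2 libraries of untreated wild-type (WT) C57B mice, out of 23 libraries in the series. All retinas were taken at postnatal day 90, and each library holds the small RNA of 1 retina. The other P23H groups, used below for named rows only, are human gRHO (3 libraries), saline (2 libraries) and uninjected (5 libraries). Neither the dose, route and time of injection nor the promoter of the construct is given in the sources used here. The libraries were chosen by their labels and by no measured value.

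The mouse gRho titles were read as a leading number, an ear mark and an eye, which gave 7 mice: 4 with both eyes and 3 with 1 eye. This reading is an inference, since the labels do not state it. The WT libraries are a right eye (WT replicate 1) and a left eye (WT replicate 2) with different numbers. Whether they came from 1 mouse or 2 is not stated, so they were counted as 2, and the eye and the WT library cannot be told apart. The groups differ in genotype and in treatment at once, so in this comparison the mutation and the injection cannot be told apart either. None of the leading title numbers of the treated mice occurs in WT. If these numbers are cages, cage and group also cannot be told apart.

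MicroRNAs (miRNAs) are short RNAs that guide Argonaute proteins to messenger RNAs and lower their translation and stability. The seed near the 5′ end of the miRNA is the stretch that mainly pairs with the target. In the retina, the miR-183 cluster (miR-183, miR-182 and miR-96) is abundant in photoreceptors, miR-124 and miR-9 are neuronal, and miR-204 is abundant in the pigment epithelium and ciliary margin. P23H rhodopsin misfolds in rod photoreceptors, and these cells are lost over time. In bulk retina, fewer cells of a type and less of its RNA per cell cannot be told apart.

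Each row of the count table names a miRNA locus and no arm, so a value could come from either the 5p or the 3p product. The RefSeq mature sequences (table of GRCm38.p6) of the loci on which the comparison turns are shown with the seed, bases 2 to 8, in capitals. For the loci that passed the test, each arm in the table is given. mir-221 and its neighbour mir-222 share the seed GCUACAU in their 3p products, and mir-351 shares CCCUGAG with miR-125b.
mmu-miR-221-5p: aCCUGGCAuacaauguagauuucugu
mmu-miR-221-3p: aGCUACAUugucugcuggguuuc
mmu-miR-222-3p: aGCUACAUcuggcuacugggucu
mmu-miR-351-5p: uCCCUGAGgagcccuuugagccug
mmu-miR-351-3p: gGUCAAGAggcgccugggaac
mmu-miR-125b-5p: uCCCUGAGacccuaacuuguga
mmu-miR-381-5p: aGCGAGGUugcccuuuguauauu
mmu-miR-381-3p: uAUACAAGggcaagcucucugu

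Some of the loci whose libraries did not overlap between the groups, or that form a retinal family, are shown next, grouped by seed. mir-193a is neither and is shown for the seed that it shares with mir-193b. The products of let-7a-1 and let-7c-2 share GAGGUAG, those of mir-204 and mir-211 share UCCCUUU, and those of mir-193b and mir-193a share ACUGGCC. miR-183, miR-182 and miR-96 lie in 1 cluster but have 3 different seeds.
mmu-let-7a-5p: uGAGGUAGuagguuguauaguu
mmu-let-7c-5p: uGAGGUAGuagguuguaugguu
mmu-miR-204-5p: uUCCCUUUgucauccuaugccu
mmu-miR-211-5p: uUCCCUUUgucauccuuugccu
mmu-miR-193b-3p: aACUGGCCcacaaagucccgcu
mmu-miR-193a-3p: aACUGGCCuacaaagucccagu
mmu-miR-183-5p: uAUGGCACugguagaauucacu
mmu-miR-182-5p: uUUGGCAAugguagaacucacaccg
mmu-miR-96-5p: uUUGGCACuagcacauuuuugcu

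Of 330 mature miRNA rows tested, 3 passed an adjusted p of 0.05 in mouse gRho against WT retinas, which is 0.909% of the rows (edgeR quasi-likelihood test on mouse sums, Benjamini-Hochberg adjustment over all rows). mir-221 was higher (0.303%), and mir-351 and mir-381 were lower (0.606%). At an unadjusted p under 0.05 there were 44 rows higher and 16 lower, and the median standard error (SE) of a log2 fold change was 0.48. Splits on other scales were 1 higher and 7 lower with TMM factors, 1 and 5 on the scale of total reads, 0 and 1 per sum of the mature rows, and 6 and 12 with DESeq2. The scale also moves the median log2 fold change of all 330 rows, which was 0.25 here, 0.03 with TMM factors, 0.02 on the scale of total reads, 0.41 per sum of the mature rows and -0.05 with DESeq2. A fold change is best read relative to these medians. The call for mir-221 and the calls for mir-351 and mir-381 rest on different patterns in the WT libraries, which are described in turn. All levels are counts per 1000000 mature miRNA reads of the library (CPM).

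mir-221 comes from an X-linked cluster that it shares with mir-222 and is known from endothelial and smooth muscle cells. It measured 27.3 to 55.1 CPM in the 11 mouse gRho libraries, with a median of 37.6, against 17.0 CPM (164 reads) in WT replicate 1 and 5.86 CPM (94 reads) in WT replicate 2. Every mouse gRho library lay above both WT libraries. Over mice it averaged 37.5 ± 5.38 CPM (SD, n = 7) in mouse gRho, and the edgeR log2 fold change over WT was 1.72 (SE 0.37, adjusted p = 0.0367).

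The size of the difference in mir-221 depended on the WT library. The mouse gRho mean was 2.21-fold WT replicate 1 and 6.40-fold WT replicate 2. Without WT replicate 2 the log2 fold change was 1.14 and missed the threshold (edgeR adjusted p = 0.246), and without WT replicate 1 it was 2.68 (edgeR adjusted p = 0.000221). Leaving out each mouse gRho mouse in turn moved it only between 1.69 and 1.79, but the call was lost each time (edgeR adjusted p from 0.0600 to 0.104). Across all 26 alternatives the sign was the same, and the adjusted p ran from 0.000163 to 0.893, under 0.05 in 10 of them.

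Since every treated library lay above both WT libraries, mir-221 had to be higher in the mice of each title number, and these sets share the same WT libraries. The log2 fold change over WT was 1.60 for the 2 mice of title number 2660501, 1.78 for the 3 mice of 2655176 and 1.75 for the 2 mice of 2655174. None of these smaller sets passed the threshold alone (edgeR adjusted p = 0.468, 0.305 and 0.893, in the same order). mir-222, which shares the seed of miR-221, measured 1.91 to 8.35 CPM in mouse gRho, with a median of 3.48, against 2.49 CPM in WT replicate 1 and 2.99 CPM in WT replicate 2. Its libraries overlapped, and its log2 fold change was 0.51 (SE 0.40, edgeR adjusted p = 0.528). A test of the difference between the rows was not made.

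**Figure D1:**
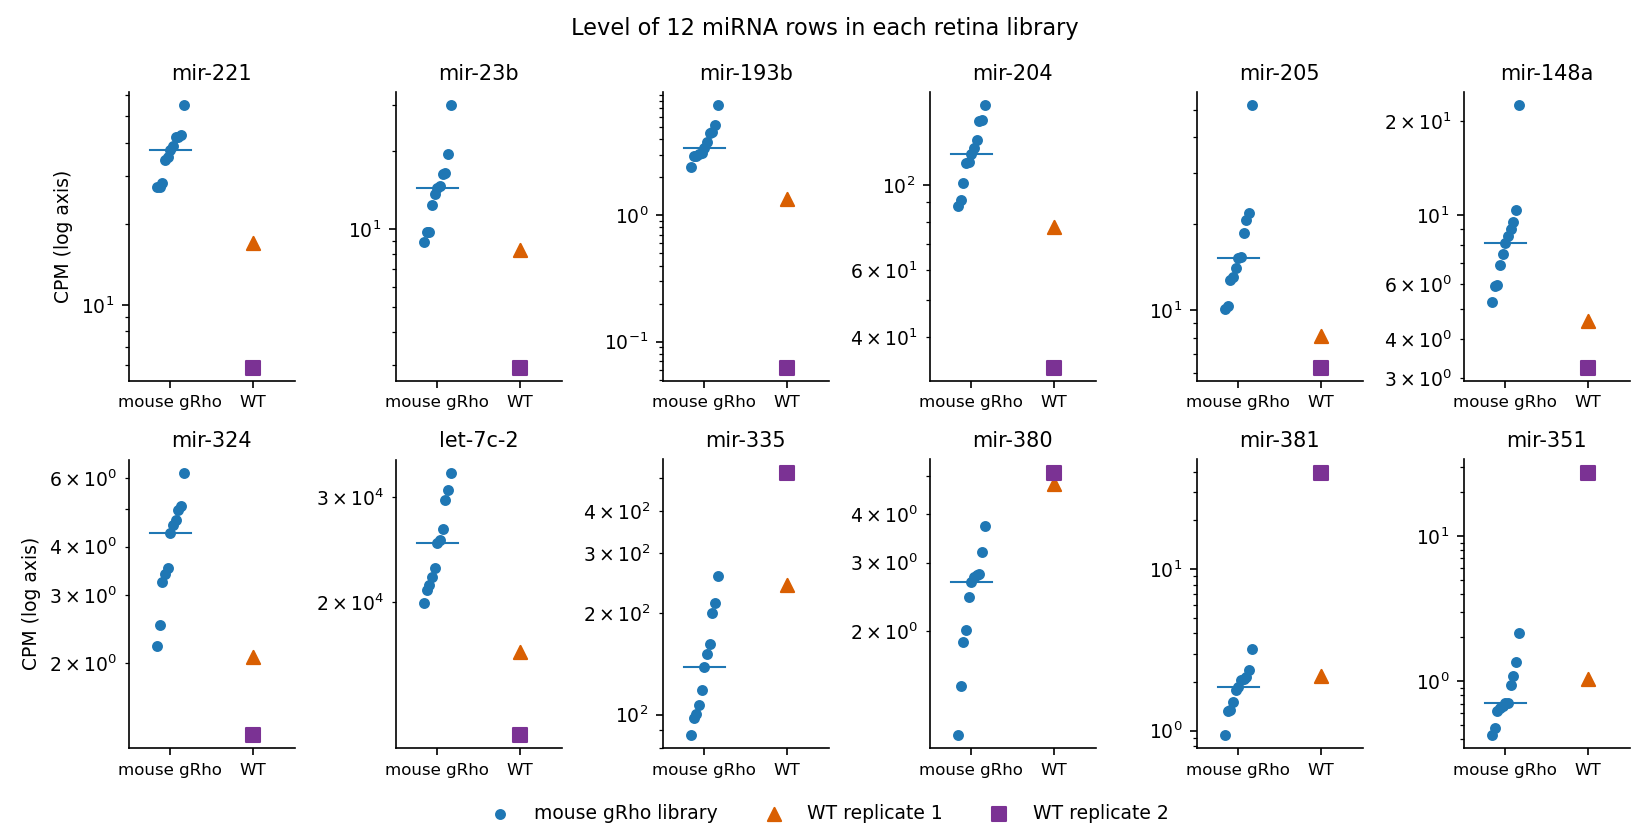
CPM of 12 miRNA rows on log axes in the 11 mouse gRho libraries (circles, with a line at the median), WT replicate 1 (triangle) and WT replicate 2 (square). In mir-221 all circles, from 27.3 to 55.1 CPM, lie above both WT libraries, while in mir-351 and mir-381 WT replicate 2 alone stands high at 27.3 and 39.6 CPM.

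mir-351 and mir-381 were low in every retina but 1. mir-351 belongs to an X-linked cluster with mir-322 and mir-503, and mir-381 to the imprinted Dlk1-Dio3 cluster, which is active in brain. mir-351 measured 0.43 to 2.14 CPM in mouse gRho, with a median of 0.70, against 1.04 CPM (10 reads) in WT replicate 1 and 27.3 CPM (438 reads) in WT replicate 2. WT replicate 1 lay within the mouse gRho range, and WT replicate 2 stood alone. The log2 fold change was -3.99 (SE 0.69, edgeR adjusted p = 0.0305), and without WT replicate 2 it was -0.22 (edgeR adjusted p = 0.932).

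mir-381 had the same pattern. It measured 0.94 to 3.18 CPM in mouse gRho, with a median of 1.86, against 2.18 CPM (21 reads) in WT replicate 1 and 39.6 CPM (635 reads) in WT replicate 2. Its log2 fold change was -3.45 (SE 0.65, edgeR adjusted p = 0.0367), and without WT replicate 2 it was -0.19 (edgeR adjusted p = 0.932). Both calls thus rest on 1 WT library.

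Some rows of the table jump between levels across libraries and were set aside before testing, by a rule that does not use the group labels. The rule can also set aside a row in which both WT libraries lie 2 or more from all P23H libraries on the log2 scale. Such a row could not be among the calls or among the rows without overlap. With the rows that were set aside kept, 3 of them were called. The log2 fold changes were -6.88 for mir-224 (edgeR adjusted p = 2.78e-05), -12.6 for mir-1a-1 and 4.45 for mir-665 (both edgeR adjusted p = 0.0248). Levels by library are not given for these 3 rows, so it cannot be read here whether both WT libraries carry the calls. Whether the jumps relate to group was not tested. mir-351 had a largest gap of 3.40 on the log2 scale over the 23 libraries, just under the limit of 3.5, and mir-381 a gap of 2.88. Both therefore stayed in the test. In the other P23H groups mir-381 had library medians of 2.72 CPM in human gRHO, 2.05 CPM in saline and 1.41 CPM in uninjected retinas, so WT replicate 2 was the high library in the whole series.

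A further 3 rows had an adjusted p of 0.0508 and are described with values only, chosen after their values were seen. let-7c-2, of the let-7 family that accumulates as cells differentiate, measured 19979 to 32975 CPM in mouse gRho, with a median of 25114, against 16480 and 11985 CPM in WT replicates 1 and 2. The libraries did not overlap, and edgeR gave a log2 fold change of 0.83 (SE 0.19). Without WT replicate 2 it was 0.62 and without WT replicate 1 it was 1.08. let-7c-2 was called higher with DESeq2 but not with TMM factors or on the scale of total reads.

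mir-335 lies in an intron of Mest, an imprinted gene. It measured 87.1 to 257 CPM in mouse gRho, with a median of 138, against 241 and 519 CPM in WT replicates 1 and 2. WT replicate 1 lay just inside the mouse gRho range, below the left eye of mouse 1 only. On the log2 scale the fold change was -1.38 (SE 0.33) and -0.72 without WT replicate 2. mir-488 measured 0.31 to 2.68 CPM in mouse gRho, against 1.24 CPM (12 reads) in WT replicate 1 and 17.4 CPM (280 reads) in WT replicate 2. Its log2 fold change of -2.71 (SE 0.62) turned to 0.20 without WT replicate 2. Both mir-335 and mir-488 were called lower with TMM factors, on the scale of total reads, with DESeq2, with no count filter and with all 5 groups in 1 fit.

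Libraries held 5968388 to 14120605 mature miRNA reads in mouse gRho, and 9645844 and 16048954 in WT replicates 1 and 2. The WT libraries differed from each other more than most treated libraries did. Over the 330 rows the median absolute log2 difference was 0.758 between the WT libraries. Between mouse gRho libraries of different mice it ranged from 0.294 to 0.902 (51 pairs, median 0.417), and from 0.294 to 0.496 without the right eye of mouse 1 (42 pairs). Of the 330 rows, 214 were lower in WT replicate 2 than in WT replicate 1. All mouse gRho libraries lay above WT replicate 1 in 31 rows and above WT replicate 2 in 105 rows, and below WT replicate 1 in 36 rows and below WT replicate 2 in 29 rows.

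The number of rows that passed differed with the WT library left out. Without WT replicate 1 there were 82 calls (71 higher and 11 lower in mouse gRho), and without WT replicate 2 there was 1. That row was mir-1982, named after its values were seen: 3.56 to 9.14 CPM in mouse gRho, against 0.10 CPM (1 read) in WT replicate 1 and 6.29 CPM (101 reads) in WT replicate 2. With 1 WT library left, that library is assumed to vary as the treated mice do.

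**Figure D2:**
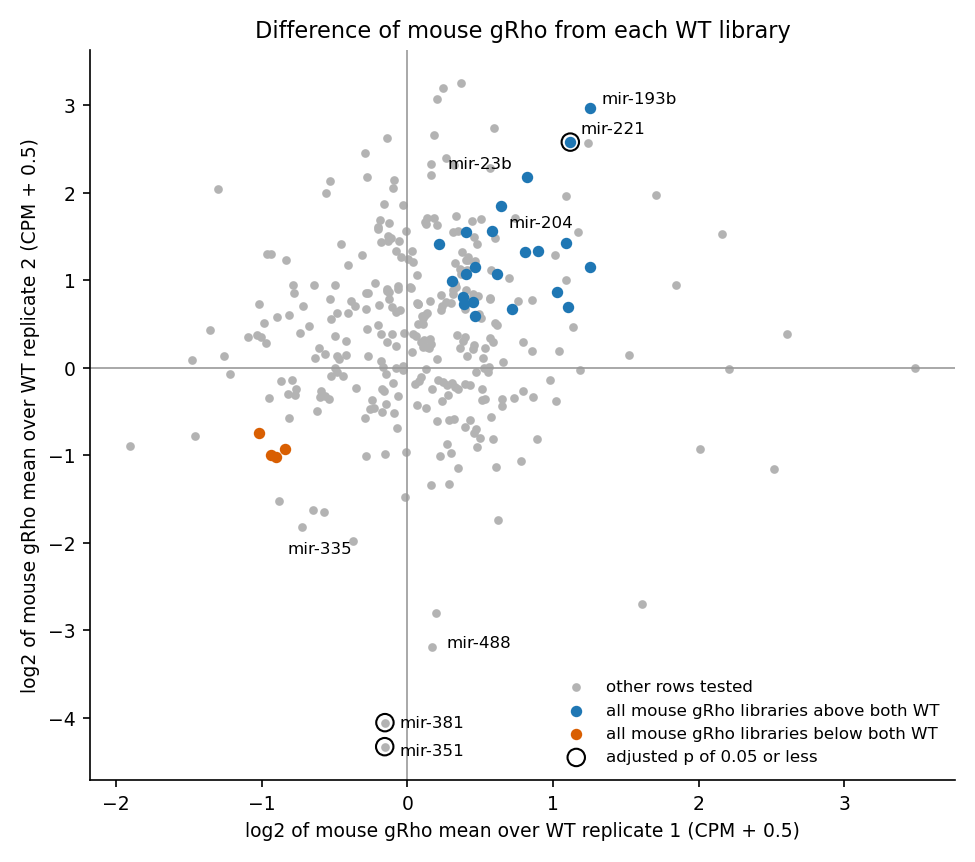
log2 ratio of the mouse gRho mean (n = 7 mice) to WT replicate 1 (horizontal) and to WT replicate 2 (vertical) for the 330 rows, each after adding 0.5 CPM. Blue points are the 22 rows whose 11 mouse gRho libraries all lie above both WT libraries, orange points the 4 rows below both, and rings the 3 rows past the threshold; mir-381 and mir-351 lie near 0 against WT replicate 1.

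Because the WT libraries differ, rows were also read library by library. In 22 of 330 rows (6.67%) all 11 mouse gRho libraries lay above both WT libraries, and in 4 rows (1.21%) all lay below both. The higher rows had log2 fold changes from 0.53 to 2.56, with edgeR adjusted p from 0.0367 (mir-221) to 0.314. The 4 lower rows were mir-301b, mir-380, mir-539 and mir-873a, with edgeR adjusted p from 0.164 to 0.286. These counts depend on the scale: they were 7 and 8 on the scale of total reads, 12 and 12 with TMM factors, and 18 and 0 per sum of the mature rows.

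Of the 22 higher rows, 7 stayed above both WT libraries on every scale tried: mir-148a, mir-193b, mir-204, mir-205, mir-218-1, mir-221 and mir-324. The rows with a log2 fold change of at least 1 in size and a median of at least 20 reads are described next, together with mir-221 above. Apart from mir-221, none of them passed the threshold in the main test. With DESeq2, mir-193b, mir-204, mir-23b and mir-380 were called, and with no count filter mir-193b, mir-205 and mir-23b were. mir-23b was also called with all 5 groups in 1 fit. mir-148a, mir-324 and mir-539 were not called in these settings.

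mir-193b had the highest fold change among them. It measured 2.40 to 7.44 CPM in mouse gRho, with a median of 3.42, against 1.35 CPM (13 reads) in WT replicate 1 and 0.06 CPM (1 read) in WT replicate 2. This gave a log2 fold change of 2.56 (SE 0.77, edgeR adjusted p = 0.141), or 1.53 without WT replicate 2, where 1 read was counted. mir-193a, which shares its 3p seed, had 0.08 to 1.87 CPM in mouse gRho, against 0.62 CPM (6 reads) and 8.47 CPM (136 reads) in WT replicates 1 and 2. Its log2 fold change was -2.54 (SE 0.64, edgeR adjusted p = 0.0653), and again only WT replicate 2 stood outside the treated range.

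mir-23b lies in a cluster with mir-27b and mir-24-1 that is active in endothelial cells. It measured 8.88 to 30.03 CPM in mouse gRho, with a median of 14.4, against 8.29 CPM (80 reads) in WT replicate 1 and 2.93 CPM (47 reads) in WT replicate 2. The lowest treated library was close to WT replicate 1. The log2 fold change was 1.44 (SE 0.40, edgeR adjusted p = 0.112) and 0.86 without WT replicate 2. The other members of its cluster had log2 fold changes of 0.08 (mir-27b) and 0.11 (mir-24-1), and these turn negative with TMM factors (-0.21 and -0.13). With TMM factors or on the scale of total reads, not every treated library lay above both WT libraries in mir-23b.

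mir-204, which is abundant in the pigment epithelium and lies in an intron of Trpm3, measured 88.2 to 162 CPM in mouse gRho, with a median of 120. WT replicate 1 had 77.7 CPM (749 reads) and WT replicate 2 had 33.3 CPM (535 reads), both below every treated library. The log2 fold change was 1.13 (SE 0.36, edgeR adjusted p = 0.143) and 0.65 without WT replicate 2. mir-211, with the same seed, measured 14.5 to 43.6 CPM in mouse gRho against 22.0 and 20.4 CPM in WT replicates 1 and 2, which lie inside the treated range. Its log2 fold change was 0.22 (SE 0.32), and -0.03 with TMM factors.

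mir-205, a miRNA of surface epithelia, measured 10.1 to 51.8 CPM in mouse gRho, with a median of 15.1, against 8.09 and 6.29 CPM in WT replicates 1 and 2. The highest value, in the right eye of mouse 1, stood apart from the other treated libraries. This gave a log2 fold change of 1.31 (SE 0.44, edgeR adjusted p = 0.152). Without mouse 1 it was 1.06.

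The 2 remaining higher rows are mir-148a and mir-324. mir-148a measured 5.26 to 22.5 CPM in mouse gRho, with a median of 8.12, against 4.56 and 3.24 CPM in WT replicates 1 and 2, a log2 fold change of 1.20 (SE 0.38, edgeR adjusted p = 0.143). mir-324 measured 2.21 to 6.20 CPM in mouse gRho, with a median of 4.34, against 2.07 and 1.31 CPM in WT replicates 1 and 2. Here the log2 fold change was 1.25 (SE 0.40, edgeR adjusted p = 0.146). In both rows the lowest treated library lay close above WT replicate 1.

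Both lower rows of this kind belong to the Dlk1-Dio3 cluster, which holds 35 of the 330 rows tested. mir-380 measured 1.08 to 3.72 CPM in mouse gRho, with a median of 2.68, against 4.77 and 5.11 CPM in WT replicates 1 and 2. The WT libraries were close to each other here, and the log2 fold change of -1.01 (SE 0.36, edgeR adjusted p = 0.164) was -0.96 without WT replicate 2. mir-539 measured 0.09 to 8.66 CPM in mouse gRho, with a median of 4.65, against 9.75 and 10.6 CPM in WT replicates 1 and 2. Of its treated libraries 3 held 1 to 4 reads and 8 held 26 to 121 reads. The largest gap over the 23 libraries was 1.80 on the log2 scale, just under the limit of 2 at which such a row was set aside. The log2 fold change was -1.04 (SE 0.50, edgeR adjusted p = 0.286). On the scale of the sum of the mature rows, neither row lay clear of both WT libraries.

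The remaining rows above both WT libraries were mir-26a-2, mir-29b-1, mir-32, mir-140, mir-218-1, mir-361, mir-1843b and mir-5132, with the let-7, mir-125b and vascular rows given below. In some the WT libraries were close together. mir-29b-1, of a family that targets collagen and other matrix genes, measured 21.4 to 44.0 CPM in mouse gRho, with a median of 32.1, against 19.6 and 20.3 CPM in WT replicates 1 and 2, a log2 fold change of 0.71 (SE 0.24, edgeR adjusted p = 0.152). mir-140, known from cartilage, measured 85.9 to 164 CPM in mouse gRho, with a median of 108, against 78.5 and 71.7 CPM in WT replicates 1 and 2, a log2 fold change of 0.53 (SE 0.27, edgeR adjusted p = 0.314). In mir-361 WT replicate 1 was near the treated libraries and WT replicate 2 far below: it measured 132 to 176 CPM in mouse gRho, with a median of 150.1, against 131 and 56.5 CPM in WT replicates 1 and 2. mir-140 and mir-361 did not lie above both WT libraries on any other scale, and mir-29b-1 did so only per sum of the mature rows.

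The 10 rows of highest mean CPM held no call. They are let-7a-1, let-7c-2, let-7d, mir-30a, mir-30e, the 3 mir-9 copies, mir-126a and mir-451a. mir-30a measured 15314 to 31927 CPM in mouse gRho, with a median of 23321, against 19652 and 12982 CPM in WT replicates 1 and 2, a log2 fold change of 0.50 (SE 0.20, edgeR adjusted p = 0.221). mir-30e had a log2 fold change of 0.03 (SE 0.19, edgeR adjusted p = 0.944). mir-451a, the miRNA of red blood cells, measured 75.9 to 2136 CPM in mouse gRho, with a median of 966, against 964 and 234 CPM in WT replicates 1 and 2, and its treated libraries spanned both.

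Treated mice were set against uninjected P23H mice to see whether the rows named above also differ within P23H. In a fit of all 5 groups, 0 of 330 rows (0.0%) passed an adjusted p of 0.05 in mouse gRho against uninjected retinas with edgeR, and DESeq2 also gave 0. At an unadjusted p under 0.05 there were 19 rows with edgeR, and the median SE was 0.39. A missed threshold does not show that these groups are alike.

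mir-221 averaged 37.5 ± 5.38 CPM (SD, n = 7 mice) in mouse gRho and 36.2 ± 3.75 CPM (SD, n = 3 mice) in uninjected P23H retinas, a log2 fold change of 0.05 (SE 0.25, edgeR adjusted p = 0.986). The saline mouse had 31.1 CPM, and human gRHO mice averaged 32.0 ± 3.07 CPM (SD, n = 2). Each of the P23H libraries had at least 27.3 CPM, above both WT libraries. mir-221 was named for its difference from these same WT libraries, so its place above them in the other P23H groups is not separate support.

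mir-23b, mir-193b and mir-204 were named for lying above WT in mouse gRho, and both P23H groups share these WT libraries, so only the levels are given. mir-23b averaged 15.1 ± 3.13 CPM in mouse gRho and 19.1 ± 0.22 CPM in uninjected retinas, a log2 fold change of -0.34. mir-193b averaged 3.90 ± 1.41 CPM in mouse gRho and 7.24 ± 1.21 CPM in uninjected retinas, a log2 fold change of -0.88. mir-204 averaged 122 ± 25.5 CPM in mouse gRho and 142 ± 30.6 CPM in uninjected retinas, a log2 fold change of -0.22. These 3 differences had an edgeR adjusted p of 0.872 or more.

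**Figure D3:**
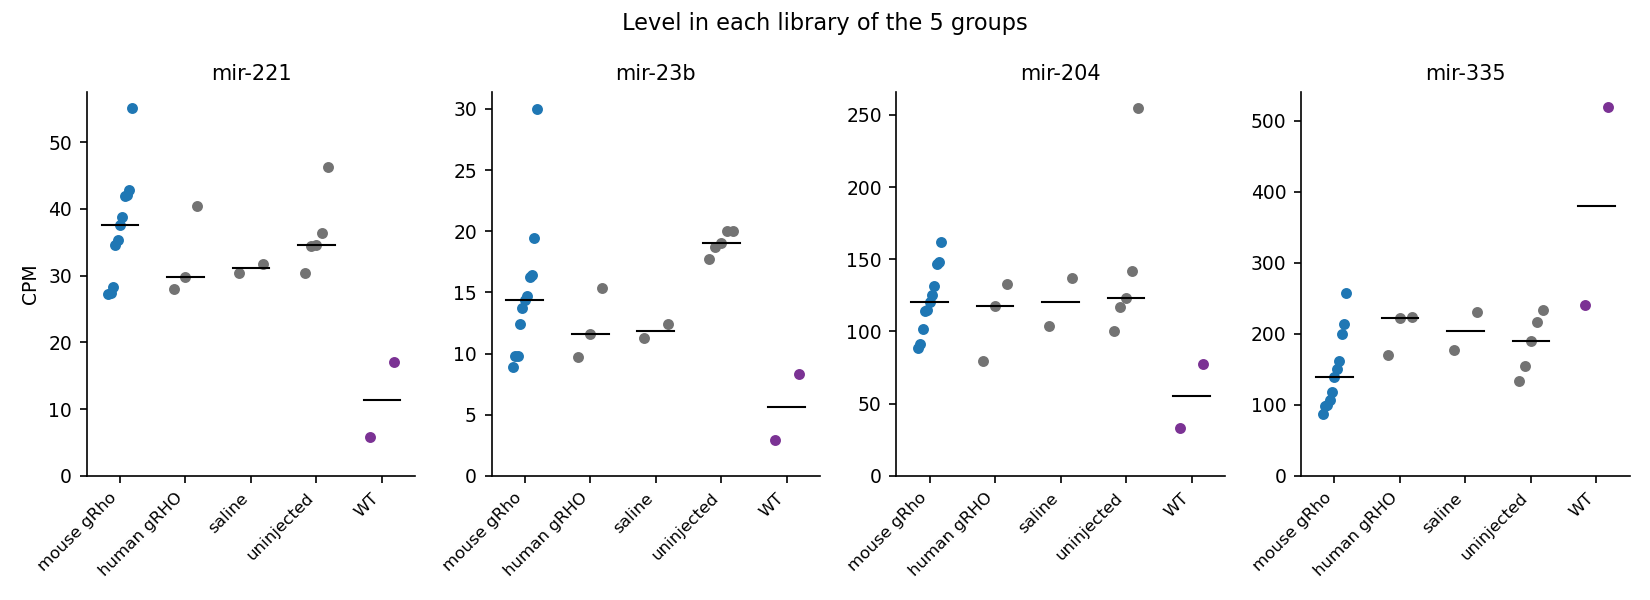
CPM of mir-221, mir-23b, mir-204 and mir-335 in every library of the 5 groups (points; lines mark the library median), with mouse gRho at the left and WT at the right. mir-221 stands at 27.3 CPM or more in every P23H library, against 17.0 and 5.86 CPM in WT. All P23H groups are set against the same WT libraries, from which mir-221 was named.

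The retinal markers check the tissue label and show which treated library stands apart. mir-183, mir-182 and mir-96, the photoreceptor cluster, were all detected in every library. mir-183 measured 42.4 to 641 CPM in mouse gRho, with a median of 431, against 746 and 158 CPM in WT replicates 1 and 2. mir-182 measured 6.92 to 197 CPM in mouse gRho, with a median of 103, against 232 and 104 CPM in WT replicates 1 and 2. mir-96 measured 3.56 to 105 CPM in mouse gRho, with a median of 70.7, against 123 and 43.4 CPM in WT replicates 1 and 2. In all 3 rows WT replicate 1 exceeded every treated library, while WT replicate 2 lay inside the treated range, for mir-183 only through the right eye of mouse 1.

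None of the 3 cluster rows passed the test. Their log2 fold changes were -0.21 (mir-183, SE 0.46), -0.75 (mir-182, SE 0.43) and -0.42 (mir-96, SE 0.41), with edgeR adjusted p from 0.377 to 0.816. The median of the 3 was -0.42, against 0.25 over all 330 rows. Without WT replicate 2 the median was -0.99, and without WT replicate 1 it was 0.51, with 2 of 3 rows higher, so the direction depends on the WT library used.

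The right eye of mouse 1 held little of these rows. It had 42.4 CPM of mir-183 against 641 CPM in the left eye of the same mouse, 6.92 against 197 CPM of mir-182, and 3.56 against 105 CPM of mir-96. The neuronal rows were low there as well, at 4.27 against 137 CPM of mir-124-1 and 895 against 4161 CPM of mir-9-1. Vascular rows were higher in that eye, with 55.1 against 28.3 CPM of mir-221 and 30.03 against 9.76 CPM of mir-23b. The part of this library in the results was measured by leaving it out: 4 rows were then called, and mir-221 kept its call (edgeR adjusted p = 0.0495).

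Of 12 neuronal loci, 10 were tested, with 5 higher and 5 lower, none called and a median log2 fold change of 0.02. Without WT replicate 1 the split was 9 higher and 1 lower (median 0.55), and without WT replicate 2 it was 5 and 5 (median -0.09). The 3 mir-124 copies, which can share reads, had log2 fold changes from -0.54 to -0.48. mir-124-1 measured 4.27 to 137 CPM in mouse gRho, with a median of 81.5, against 164 and 61.6 CPM in WT replicates 1 and 2. The 3 mir-9 copies had log2 fold changes from 0.20 to 0.36, and mir-9-1 measured 895 to 4414 CPM in mouse gRho, with a median of 3256, against 3158 and 2009 CPM in WT replicates 1 and 2. In both, at least 1 WT library lay inside the treated range.

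The other retinal lists were likewise without calls. All 5 tested rows of the miR-181 family, found in inner retinal neurons, had a log2 fold change above 0, with a median of 0.64. Without WT replicate 2 only 2 of the 5 did, with a median of -0.09. mir-132 and mir-212, which neuronal activity induces, had log2 fold changes of 0.24 and 0.11, and 0.01 and -0.09 with TMM factors. Their median was -0.02 without WT replicate 2 and 0.42 without WT replicate 1.

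**Figure D4:**
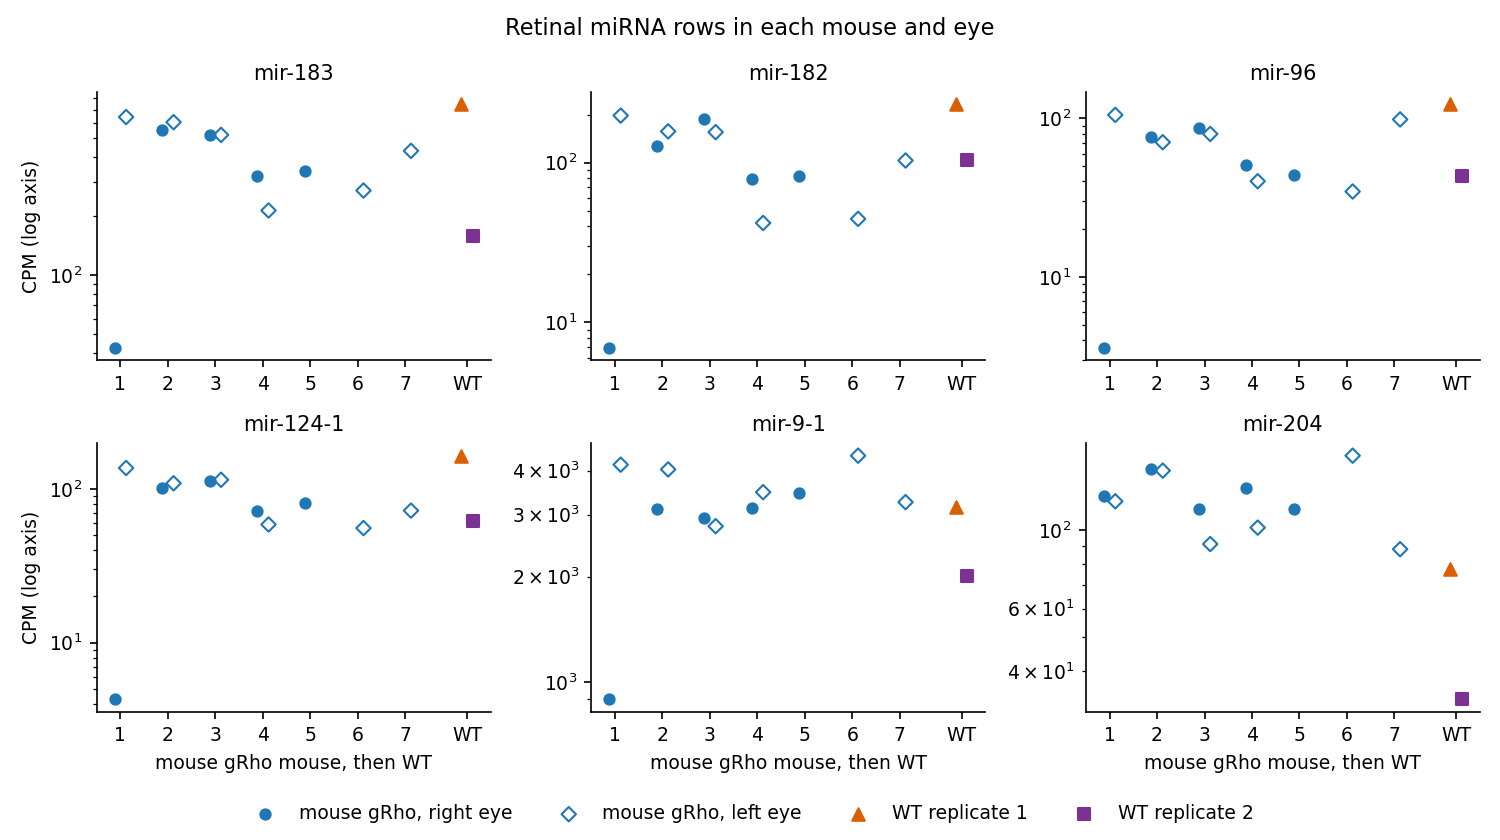
CPM on log axes of 6 retinal miRNA rows in each mouse gRho mouse (numbers 1 to 7; filled circles, right eye; open diamonds, left eye) and in the WT libraries at the right. The right eye of mouse 1 lies far below its left eye in mir-183 (42.4 against 641 CPM) and mir-124-1 (4.27 against 137 CPM) but not in mir-204.

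Among vascular miRNAs, 1 of 11 tested rows passed the test, mir-221, and 4 lay above both WT libraries in every treated library: mir-221, mir-23a, mir-23b and mir-24-2. Over all 330 rows, 0.909% passed and 6.67% lay above both WT libraries. On the scale of total reads and with TMM factors only mir-221 of these 4 stayed above both, while per sum of the mature rows all 4 did. The list had 9 rows higher and 2 lower, with a median log2 fold change of 0.51, against 0.25 over all rows. With TMM factors the split was 6 higher and 5 lower and the median 0.25. Without the right eye of mouse 1 the split was 7 higher and 4 lower and the median 0.33, against 0.27 over all rows. Leaving out WT replicate 1 gave a median of 0.39, against 0.52 over all rows. Leaving out WT replicate 2 gave 0.52, against 0.16 over all rows. mir-143 had the lowest log2 fold change of the list, -1.46. It was not called here but was called lower with TMM factors, with DESeq2, with no count filter and without the right eye of mouse 1. mir-24-2 measured 342 to 1124 CPM in mouse gRho, with a median of 472, against 340 and 172 CPM in WT replicates 1 and 2. mir-23a measured 8.94 to 44.7 CPM in mouse gRho, with a median of 13.6, against 7.26 and 8.16 CPM in WT replicates 1 and 2. In both rows the lowest treated library lay just above WT. mir-126a, the miRNA of endothelial cells, measured 402 to 1799 CPM in mouse gRho, with a median of 1035, against 1084 and 863 CPM in WT replicates 1 and 2. The treated libraries spanned both, with a log2 fold change of 0.07 (SE 0.30), or -0.15 with TMM factors.

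Markers of other cells varied with the library. The summed level of the 2 red blood cell rows, mir-451a and mir-144, ranged from 77.9 to 2188 CPM in mouse gRho, against 987 and 254 CPM in WT replicates 1 and 2. The summed level of the 2 tested mir-133a copies, of muscle, ranged from 110 to 931 CPM in mouse gRho, against 512 and 67.4 CPM in WT replicates 1 and 2. The other muscle loci were not tested: mir-1a-1, mir-1a-2 and mir-206 are 2-level rows, and mir-133b missed the count rule. With 2-level rows kept, mir-1a-1 went the other way, with a log2 fold change of -12.6 (edgeR adjusted p = 0.0248). The 7 tested rows of surface epithelium, lens and cornea summed to 80.1 to 322.1 CPM in mouse gRho, against 83.4 and 68.5 CPM in WT replicates 1 and 2. All 7 had a log2 fold change above 0 (median 0.60, and 0.37 with TMM factors). Their median was 0.39 without the right eye of mouse 1, 0.93 without WT replicate 1 and 1.06 without WT replicate 2. The 5 tested immune and gliosis rows summed to 22.6 to 74.7 CPM in mouse gRho, against 41.3 and 34.0 CPM in WT replicates 1 and 2, with none called; mir-146a and mir-155 are 2-level rows and were set aside. The part of these cells in the called rows was not tested.

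The let-7 family, with 11 tested members, contributed 3 of the 22 rows above both WT libraries: let-7a-1, let-7c-2 and let-7e. Over all rows the share was 6.67%. On the scale of total reads none of these 3 stayed above both WT libraries, and per sum of the mature rows only let-7c-2 did. Of 11 tested members 9 were higher and 2 lower, none was called, and the median log2 fold change was 0.55 (0.31 with TMM factors, with 7 higher and 4 lower). Over all rows it was 0.25 (0.03 with TMM factors). Without WT replicate 1 the family median was 0.49, against 0.52 over all rows. Without WT replicate 2 it was 0.39, against 0.16 over all rows. let-7a-1 measured 25301 to 34976 CPM in mouse gRho, with a median of 28451, against 22014 and 17403 CPM in WT replicates 1 and 2. Its log2 fold change was 0.55 (SE 0.16, edgeR adjusted p = 0.128). let-7d had the opposite sign, with a log2 fold change of -0.45 (SE 0.33, edgeR adjusted p = 0.511).

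Of the remaining families, the miR-99/100 and miR-125 loci had 4 of 6 rows higher. mir-125b-1 and mir-125b-2, copies that can share reads, lay above both WT libraries, as did 6.67% of all rows. Neither did so on the scale of total reads or per sum of the mature rows, nor mir-125b-2 with TMM factors. The median log2 fold change was 0.54, against 0.25 over all rows. It was 0.86 without WT replicate 1 and 0.19 without WT replicate 2, against 0.52 and 0.16 over all rows. The miR-29 family (median 0.28), the miR-26 family (0.37) and the miR-30 family (-0.09) held no call. Without WT replicate 2 the miR-29 median was 0.14 and the miR-30 median 0.22, against -0.21 for miR-30 without WT replicate 1. With TMM factors 1 of 6 miR-30 rows was higher. The miR-17-92 and related clusters had 5 rows higher and 6 lower of 11 tested, with a median of -0.19; without WT replicate 1 it was 0.75, and without WT replicate 2 it was -0.50.

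The Dlk1-Dio3 cluster was the longest list. Of its 53 loci, 43 passed the count rule, 8 of these jumped between levels and 35 were tested, with 20 higher, 15 lower and 1 called (mir-381). Over all 330 rows 0.909% were called. In 2 of the 35 rows (mir-380 and mir-539) all treated libraries lay below both WT libraries, against 1.21% over all rows. The median log2 fold change was 0.16, and -0.08 with TMM factors. The median turned with the WT library left out: it was 0.77 without WT replicate 1 (26 higher and 9 lower) and -0.13 without WT replicate 2 (13 higher and 22 lower). mir-127 measured 88.6 to 196 CPM in mouse gRho, with a median of 173, against 174 and 36.3 CPM in WT replicates 1 and 2, so that here WT replicate 2 was the low library.

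**Figure D5:**
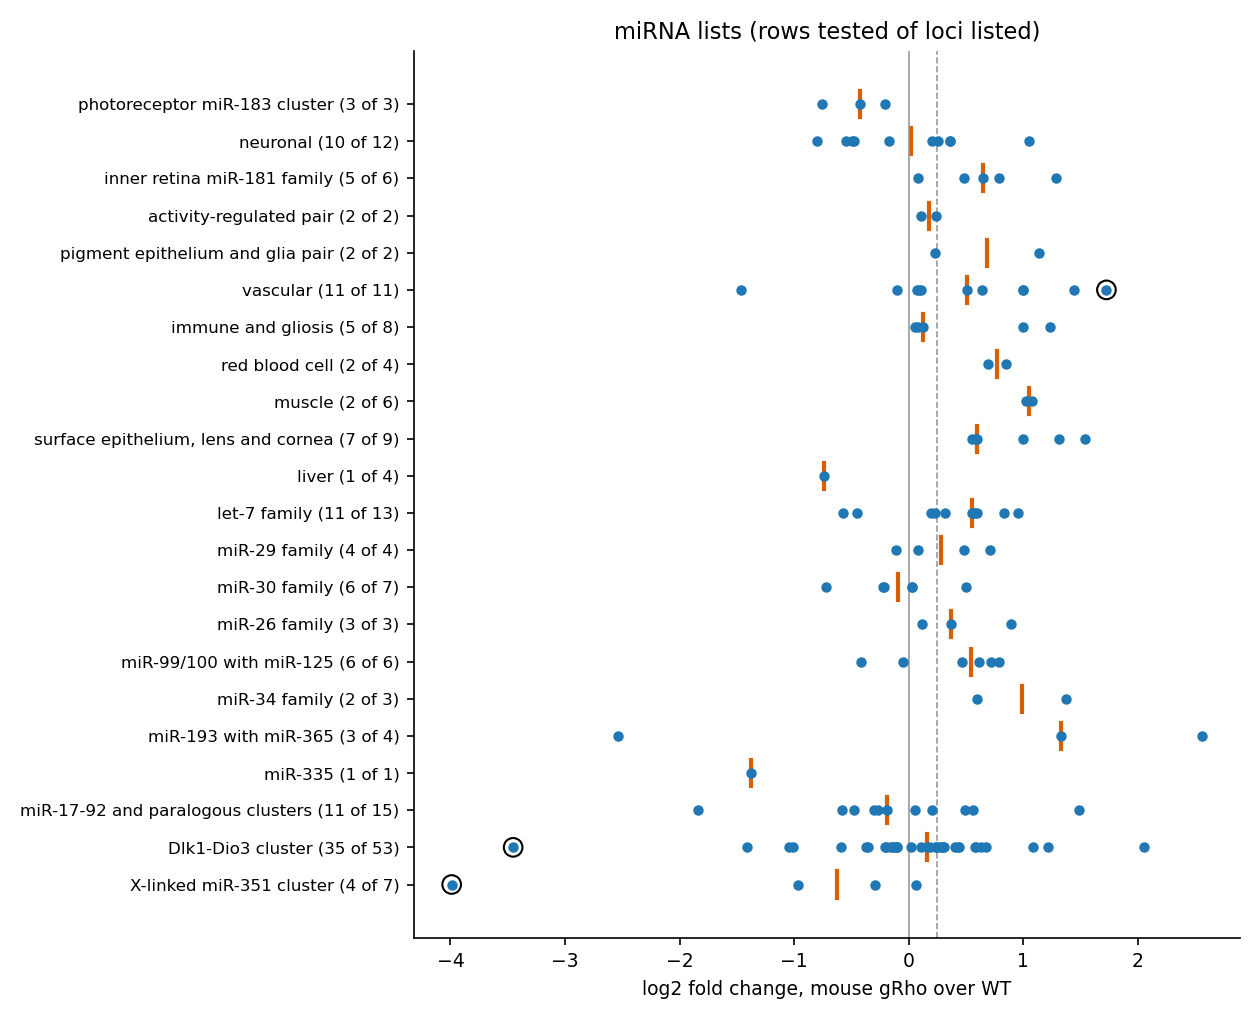
log2 fold change of mouse gRho over WT for each tested row (points) of each miRNA list, with the list median (orange line), rows past an adjusted p of 0.05 (rings), 0 (solid line) and the median of all 330 rows, 0.25 (dashed line). Labels give the rows tested of the loci listed; only mir-221, mir-381 and mir-351 are ringed.

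The makeup of the libraries differed as well. Mature miRNA took 81.4 ± 3.42% (SD, n = 7 mice) of aligned reads in mouse gRho, against 85.0% and 91.0% in WT replicates 1 and 2. Reads that the alignment table calls crossmapped miRNA took 11.7 ± 1.43% in mouse gRho, against 9.51% and 5.32% in WT replicates 1 and 2. In both classes WT replicate 2 lay outside the range of the treated libraries and WT replicate 1 inside it. Ribosomal RNA took 1.51 ± 1.65% in mouse gRho, against 0.315% and 0.201%, and the libraries of 3% or more were the left eyes of mice 2 and 6 and the right eye of mouse 3. Each of these differences had a two-sided exact permutation p of 0.0556, the smallest that 36 arrangements allow, and an adjusted p of 0.139 over 10 classes. Without the 3 libraries rich in ribosomal RNA 0 rows passed the threshold and 55 had an unadjusted p under 0.05 (mir-221, edgeR adjusted p = 0.0596). mir-221 remained above both WT libraries in every treated library that was left.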

How the data were processed

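Small RNA of 13 retinas (11 mouse gRho, 2 WT) was compared. The authors deposited whole-number read counts for each miRNA locus, split into mature, precursor, stem-loop and other rows, with a second table that gives reads by alignment class. Per the labels' protocols, retinal RNA was extracted with Trizol, and a NEXTflex small RNA v3 kit was used for the libraries. DESeq2 is named by the submitters' processing notes. The aligner is not given in the sources used here, nor is the miRNA annotation or the genome build, and coordinates are left out. Of 903 mature rows, 388 had at least 10 counts in at least 3 of the 13 libraries. Of these, 58 were set aside as 2-level (a highest count of 30 or more and a gap in sorted log2(CPM + 0.5) over 23 libraries of 3.5 or more, or of 2 or more if each side held 2 or more libraries), which left 330. Mature miRNA reads in the second table were the scale, and the mature rows sum to 10.4% to 19.5% of them.

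Eyes of 1 mouse were summed, and counts were tested with edgeR 4.0.16 (robust quasi-likelihood, no TMM factors) in R 4.3.3, with an SE from the fold change and its F statistic. The test was also tried on simulated counts. These had the same spread setting in every row and no WT library that stood apart, so they do not match these data. limma 3.58.1 and DESeq2 1.42.0 were alternatives. Libraries of a group all differed by more than counting noise (chi-square over its degrees of freedom, 3.18 or more in mouse gRho and 13.1 in WT). Mouse identity is inferred from titles, and p-values cover only the spread of these mouse sums, part of which may be technical. Copies of a locus can share reads. Class shares were compared by exact permutation over 9 mice.

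Named rows are those past an adjusted p of 0.05, those whose libraries do not overlap with a log2 fold change of at least 1 in size and a median of at least 20 reads, the 10 rows of highest mean CPM, and the members of the retinal lists. Other rows given with values, such as mir-29b-1, mir-140, mir-361 and mir-127, fall outside these rules and were picked with their values known. Members, lists and the 2-level rule were chosen with earlier results of these data known. Mature sequences were found for 289 of the 330 rows.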

Additional observations from a re-analysis of the deposited data

Results flagged for a closer look

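In 17 tests of the highest or lowest of the 7 mouse gRho mice (Dixon's criterion, which chance passes in about 1 of 20 groups), 5 values stood far from the other mice. mir-193b was highest in mouse 2, at 6.77 CPM. mir-205 was highest in mouse 1, at 35.1 CPM, and mir-148a was also highest in mouse 1, at 14.2 CPM. Mouse 6 had the lowest mature miRNA share, 74.3% of aligned reads. Mouse 6 also had the highest ribosomal RNA share, 4.85% of aligned reads. Without mouse 1 the log2 fold change over WT was 1.06 for mir-205 and 1.05 for mir-148a.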

How the results depend on the processing

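The 3 called rows became 8 with TMM factors, 6 on the scale of total reads, 1 per sum of the mature rows and 18 with DESeq2. There were 13 with no count filter and 0 of 209 with 30 counts in 3 libraries (46 with an unadjusted p under 0.05). All 5 groups in 1 fit gave 6, and mouse as a random effect (limma voom) gave 1. With the 2-level rows kept, 4 of 388 rows were called: mir-351, mir-224, mir-1a-1 and mir-665. In that setting mir-221 (edgeR adjusted p = 0.0824) and mir-381 lost their calls. Without 1 WT library the count ran from 1 (replicate 2 left out) to 82 (replicate 1 left out), and without 1 treated mouse from 0 to 2 (49 to 58 rows with an unadjusted p under 0.05). It was 0 without the libraries rich in ribosomal RNA, 0 without those and the right eye of mouse 1, an alternative chosen after seeing the data (46 rows with an unadjusted p under 0.05), and 0 for the mice of each title number (10 to 32). Of the rows above both WT libraries, 22 became 7 on the scale of total reads, 12 with TMM factors and 34 without the libraries rich in ribosomal RNA. The 4 rows below both became 8, 0 (per sum of the mature rows), 12 (TMM factors) and 7 (without the right eye of mouse 1). These scales were also chosen after seeing the data, and all 3 calls of the main test are among the 8 with TMM factors and the 18 with DESeq2. Among the 14 rows with their own description only mir-488 changed sign: its log2 fold change was -3.61 without WT replicate 1 and 0.20 without WT replicate 2. The cause of these changes was not tested. No paired analysis was possible because the labels give no replicate numbers and the groups are different mice, with nothing that ties a treated mouse to a WT library. Depth limits the low rows, such as mir-193b with 1 read in WT replicate 2, and the 2 WT libraries, which differ by a median of 0.758 on the log2 scale, limit every row.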

Other observations

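Reads of the precursor and stem-loop classes were not part of the comparison. The stem-loop row of mir-182 held 12 to 725 reads in mouse gRho (1.14 to 51.3 CPM, median 18.4), against 528 reads (54.7 CPM) in WT replicate 1 and 186 reads (11.6 CPM) in WT replicate 2. WT replicate 1 lay above every treated library, and WT replicate 2 inside their range. The precursor row of mir-204 held 13 to 47 reads in mouse gRho (median 27), against 22 and 29 reads in WT replicates 1 and 2, so these libraries overlapped. The precursor row of mir-221 held 0 to 4 reads in mouse gRho, against 1 and 0 reads in WT replicates 1 and 2, too few to compare.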
